A study of Mus musculus with 6 samples.

Results

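The genes that carry cells from G1 into S phase and copy the DNA were examined in cultured mouse spermatogonial stem cells given EPZ5676, also called pinometostat, a compound that blocks DOT1L, the enzyme that methylates a lysine of histone H3. The set was taken by symbol and comprised 43 named genes of DNA replication and S-phase entry, out of 24495 symbols in the gene count table. All 43 were in the table and all passed the filter on low counts, among 14855 genes tested. The stem cells came from testes of DBA2 mice at postnatal days 5 to 8 and were grown in vitro. For 3 libraries the cells received 2 uM EPZ5676 for 2 weeks, and for 3 control libraries 0.2% ethanol for the same time. Whether the EPZ5676 cells also received ethanol is not stated in the labels. The design text calls each group a biological triplicate, but the labels do not say whether the 3 came from separate animals or derivations, so p-values measure the spread between these libraries. The question was whether transcripts of the replication programme differ when DOT1L is inhibited.

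Spermatogonial stem cells divide continuously in culture, so that every cycle has to reload and fire the replication origins. In G1 the origin recognition complex, CDC6 and CDT1 load the MCM helicase onto DNA. Cyclin E kinase and E2F transcription factors then drive entry into S phase, CDC45 and GINS activate the helicase, and polymerases held by the PCNA clamp copy both strands. E2F proteins bind the promoters of many of these genes and switch them on together at the G1/S boundary.

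The E2F promoter element was looked for first, as a feature other than function that some of the 43 genes have in common. RefSeq promoter windows (GRCm38.p6, from 250 bases before to 50 bases after each annotated start) were at hand for 34 of the 43 genes, as 37 windows. The E2F element was searched on both strands as TTT, then any 2 letters drawn from C and G, then CGC. It occurred in 14 of the 37 windows (37.8%), against 2.26% of all 32851 windows. The CCAAT box bound by NF-Y was present in 62.2% of the windows of these genes and 37.4% of all windows. The CHR element of late cell cycle genes, searched as TTTGAA, was present in 16.2% of these windows and 17.9% of all. Among 26 windows, at hand for 25 of 30 G2/M genes, the E2F element was in 3.85% and the CHR element in 73.1%. A match describes the letters only and is not evidence of binding.

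**Figure D1:**
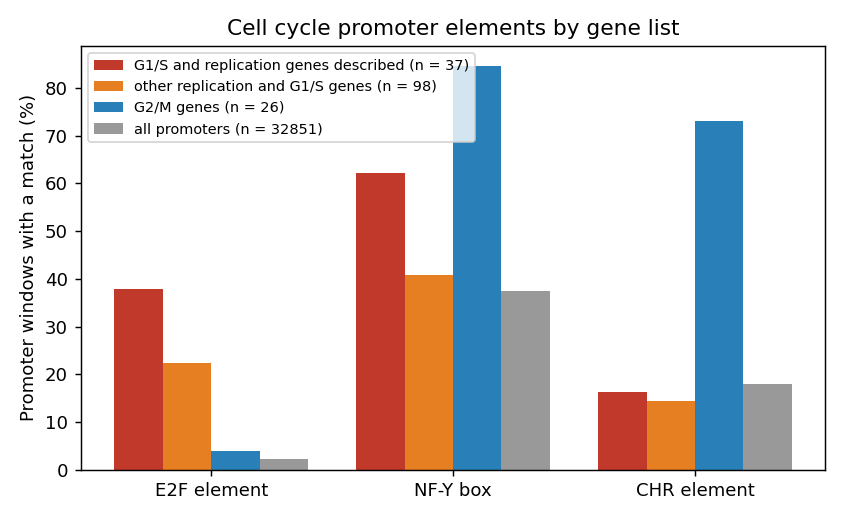
Share of promoter windows (%) that hold an E2F element, an NF-Y box or a CHR element, for the G1/S and replication genes described (37 windows), other replication and G1/S genes (98), G2/M genes (26) and all windows (32851). The E2F bars stand at 37.8% for the genes described and 2.26% for all windows, and the CHR bar is tallest for G2/M genes at 73.1%.

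An E2F element lay wholly upstream of the start, with its flanks, in 8 genes. These windows are shown because they display the element in its natural context in MCM genes, in the licensing factor gene Cdc6 and in genes of later steps. Each is 30 bases, written 5′ to 3′ on the strand of the gene, with the match in capitals. The windows are chr8:75109345-75109374 (plus strand) for Mcm5, chr1:128359797-128359826 (minus strand) for Mcm6, chr5:138172030-138172059 (minus strand) for Mcm7 and chr11:98908002-98908031 (plus strand) for Cdc6. They are chr19:38930917-38930946 (plus strand) for Hells, chrX:93632275-93632304 (minus strand) for Pola1, chr2:72476137-72476166 (plus strand) for Cdca7 and chr4:32615283-32615312 (plus strand) for Casp8ap2.
Mcm5: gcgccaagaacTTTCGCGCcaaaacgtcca
Mcm6: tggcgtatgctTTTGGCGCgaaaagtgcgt
Mcm7: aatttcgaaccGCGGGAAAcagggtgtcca
Cdc6: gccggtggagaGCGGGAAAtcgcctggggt
Hells: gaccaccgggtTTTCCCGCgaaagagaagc
Pola1: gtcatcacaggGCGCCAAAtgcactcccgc
Cdca7: tgcgtcccggcGCGGGAAAgccggtggccc
Casp8ap2: aagtaccagagTTTGGCGCcaactggaatc
In Mcm5 and Mcm6 the element printed overlaps a further match on the opposite strand. Genes with and without an E2F match are compared after the expression values.

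The EPZ5676 libraries held 19866337, 54645903 and 20676993 gene counts (replicates 1, 2 and 3), against 19554140, 17784332 and 21046473 for ethanol. The counts of a single replication gene in a library ran from 194 for Dscc1 to 47211 for Nasp, so counting error was small beside the spread between libraries for most of them. Levels are given as CPM, counts normalised to library size with TMM factors. Germ cell identity was checked with 14 listed markers, of which 13 were in the table, and their summed level was 4601 to 4749 CPM with EPZ5676 and 4385 to 4934 CPM with ethanol. Dazl, Uchl1 and Ddx4 made up most of that sum, and single markers of the list differed more. Gfra1, a GDNF receptor gene, had 53.2, 59.3 and 44.0 CPM with EPZ5676, against 73.0, 68.8 and 66.5 CPM with ethanol, with no overlap, a log2 fold change of -0.41 and an edgeR adjusted p of 0.596 unblocked and 0.0611 blocked. Ret, whose product acts together with that receptor, had a log2 fold change of -0.38 with overlapping groups. Etv5, a transcription factor gene of these cells, had one of 0.18 without overlap, and neither passed the edgeR test in either fit. Both replicate 2 libraries stood apart from the other 4 on the first principal component, at 25.1 and 39.5 against -18.0 to -13.5. The 16 fibroblast markers summed to 1494, 1958 and 1606 CPM in EPZ5676 replicates 1, 2 and 3, against 1468, 2572 and 1600.2 CPM in ethanol replicates 1, 2 and 3. Fn1 was the largest part of that sum, with a mean of 683 CPM in each group. Apart from Fn1 and Fbn1, at log2 fold changes of 0.00 and 0.33, every fibroblast marker was negative unblocked, down to -0.42 for Dcn. None passed the edgeR test in either fit, and the smallest adjusted p was 0.0504, for Col1a2 in the blocked fit. Of the 7 Leydig markers, 6 stayed under 1 CPM in every library. The other, Star, had 5.63, 5.03 and 6.24 CPM with EPZ5676, against 7.58, 9.63 and 6.93 CPM with ethanol. Its groups did not overlap, and its edgeR adjusted p was 0.616 unblocked and 0.169 blocked. The 9 Sertoli markers in the table summed to 32.5 to 40.4 CPM with EPZ5676 and 33.6 to 47.1 CPM with ethanol.

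The mean summed level of the replication genes was the same with EPZ5676 as with ethanol, and none of the 43 passed the test. The 43 genes summed to 8145, 8434 and 8334 CPM in EPZ5676 replicates 1, 2 and 3, against 8514, 7997 and 8403 CPM in ethanol replicates 1, 2 and 3. Mean sums were 8304 ± 147 CPM for EPZ5676 and 8304 ± 272 CPM for ethanol (SD over 3 libraries each), and the groups overlapped. In replicates 1 and 3 both EPZ5676 sums lay below both ethanol sums, while in replicate 2 the EPZ5676 sum was the higher. Nasp and Hells weighed most in these sums, each with a mean of 829 CPM with EPZ5676. By the edgeR quasi-likelihood test, adjusted by Benjamini-Hochberg over all 14855 genes, 0 of the 43 genes had an adjusted p under 0.05, where 0% of all genes did. The smallest adjusted p among them was 0.601, for Cdc6. At an unadjusted p under 0.05 there were 2 lower and 0 higher genes, 4.65% of the 43, against 7.41% of all genes (3.57% lower and 3.84% higher). DESeq2 and limma-voom also called 0 of the 43 genes, against 0.337% and 0% of all genes.

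With the replicate number as a block in the edgeR fit, 0 of the 43 genes were called again, against 0.653% of all genes. The smallest adjusted p was then 0.0957, again for Cdc6. At an unadjusted p under 0.05 the blocked fit gave 1 higher and 3 lower genes, 9.30% of the 43, against 18.5% of all genes (9.01% higher and 9.51% lower). DESeq2 and limma-voom with the block called 0 of the 43, against 1.97% and 0.195% of all genes. In bulk RNA, a change in the share of cells in S phase and a change in transcript per cell cannot be told apart.

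The log2 fold changes of the 43 genes were small. They ran from -0.27 for Cdc6 to 0.14 for Blm, and 31 were smaller than 0.1 in either direction. The median was -0.03 over the 43 genes and -0.01 over all genes tested, with 20 positive and 23 negative values. The median size regardless of sign was 0.07 for the 43 genes, against 0.12 for all genes and 0.09 for the 8798 genes within the same range of mean CPM. Within that range genes were not matched on level, and the median of mean CPM was 136 for the 43 genes and 21.7 for all genes tested. The part of expression level in the smaller median size was not tested. The 95% interval of the log2 fold change stayed within 1.5-fold in both directions for 42 of the 43 genes. The exception at 1.5-fold was Ccne2, a cyclin E gene, with an interval from -0.59 to 0.21. Differences smaller than these intervals were not detectable with 3 libraries per group.

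**Figure D2:**
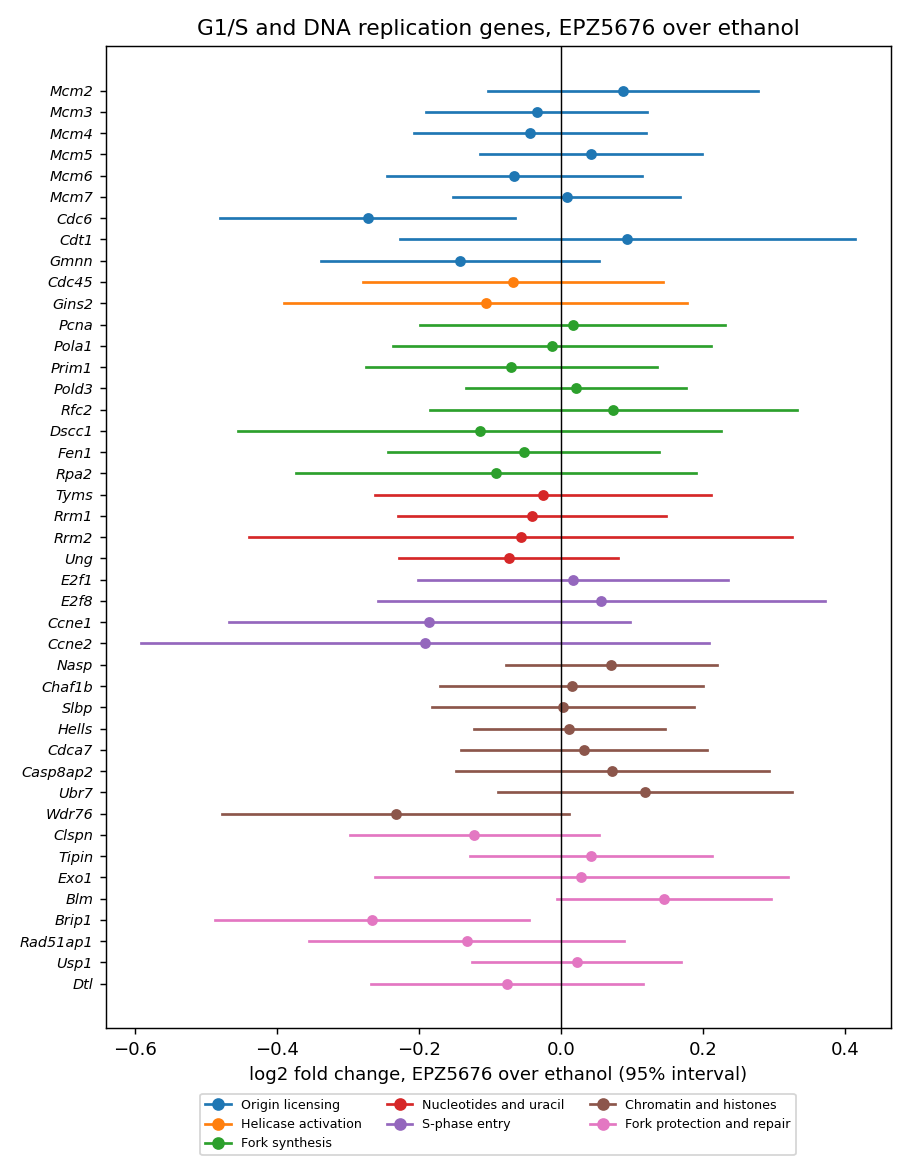
Log2 fold change of each of the 43 genes, EPZ5676 over ethanol, from the edgeR fit without pairing (points) with its 95% interval (lines), coloured by role. All points lie between -0.27 and 0.14, and the intervals of 41 of the 43 genes cross 0.

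**Figure D3:**
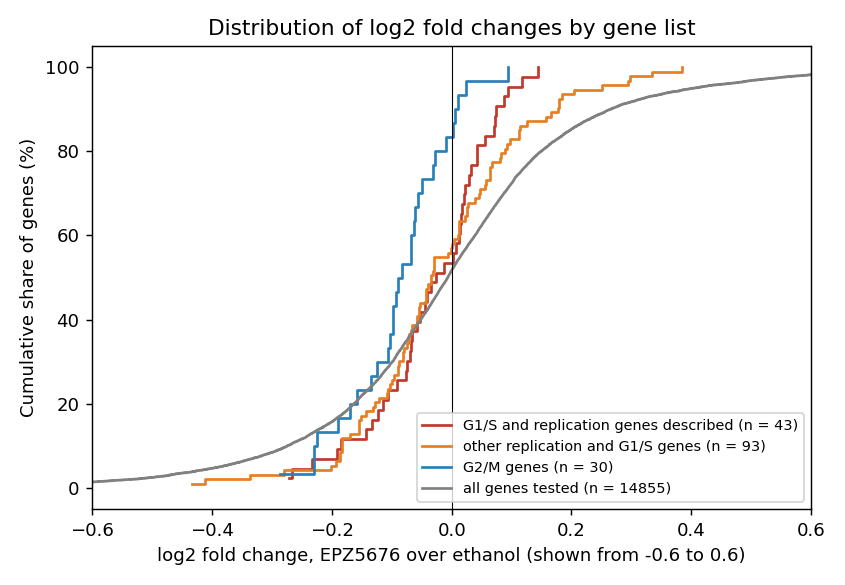
Cumulative share of genes (%) against log2 fold change, EPZ5676 over ethanol, for the 43 genes described, 93 other replication and G1/S genes, 30 G2/M genes and all 14855 genes tested; the axis is cut at -0.6 and 0.6. The curve of the 43 genes is steeper than that of all genes, with medians of -0.03 and -0.01, while the G2/M curve lies to the left with a median of -0.09.

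The MCM2 to MCM7 proteins form the ring-shaped helicase that unwinds DNA at the fork, with 1 copy of each per ring. The 6 genes summed to 2430.2, 2508 and 2439 CPM in EPZ5676 replicates 1, 2 and 3, against 2580.2, 2299 and 2493 CPM in ethanol replicates 1, 2 and 3. Mean sums were 2459 ± 42.4 CPM for EPZ5676 and 2458 ± 144 CPM for ethanol (SD over 3 libraries each). Ethanol replicates 1 and 2 were the highest and the lowest of the 6 libraries, and the EPZ5676 libraries lay between them. In replicates 1 and 3 both EPZ5676 sums were below both ethanol sums, and in replicate 2 the EPZ5676 sum was the higher.

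Mcm2 had 467, 516 and 432 CPM in EPZ5676 replicates 1, 2 and 3, against 467, 419 and 445 CPM in ethanol replicates 1, 2 and 3. Mcm3 had 402, 439.7 and 414 CPM with EPZ5676, against 442, 407 and 437 CPM with ethanol, in the same order. Mcm4 had 315, 308 and 324 CPM with EPZ5676, against 348, 306 and 322 CPM with ethanol. In each of these genes the groups overlapped, and EPZ5676 replicate 2 was the highest of its group for Mcm2 and Mcm3 but the lowest for Mcm4. Mcm5 had 386, 395 and 372 CPM with EPZ5676, against 393, 353 and 374 CPM with ethanol. Mcm6 had 408, 417 and 442 CPM with EPZ5676, against 466, 401 and 459 CPM with ethanol. Mcm7 had 451, 433 and 456 CPM with EPZ5676, against 465, 413 and 455 CPM with ethanol. Ethanol replicate 2 was the lowest library of all 6 for Mcm2, Mcm4, Mcm5, Mcm6 and Mcm7, and the groups overlapped in every MCM gene.

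The log2 fold changes of the 6 MCM genes were 0.09 ± 0.08 (SE) for Mcm2, 0.04 ± 0.07 for Mcm5 and 0.01 ± 0.07 for Mcm7. They were -0.03 ± 0.07 for Mcm3, -0.04 ± 0.07 for Mcm4 and -0.07 ± 0.08 for Mcm6. The sign of Mcm7 turned with library totals alone as the scaling, and those of Mcm2, Mcm5 and Mcm7 turned without both replicate 2 libraries. The widest interval was that of Mcm2, from -0.10 to 0.28. Mcm7 overlaps the neighbouring gene Ap4m1 in RefSeq, and since the use of strand in counting is not given, reads of the pair may be shared.

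**Figure D4:**
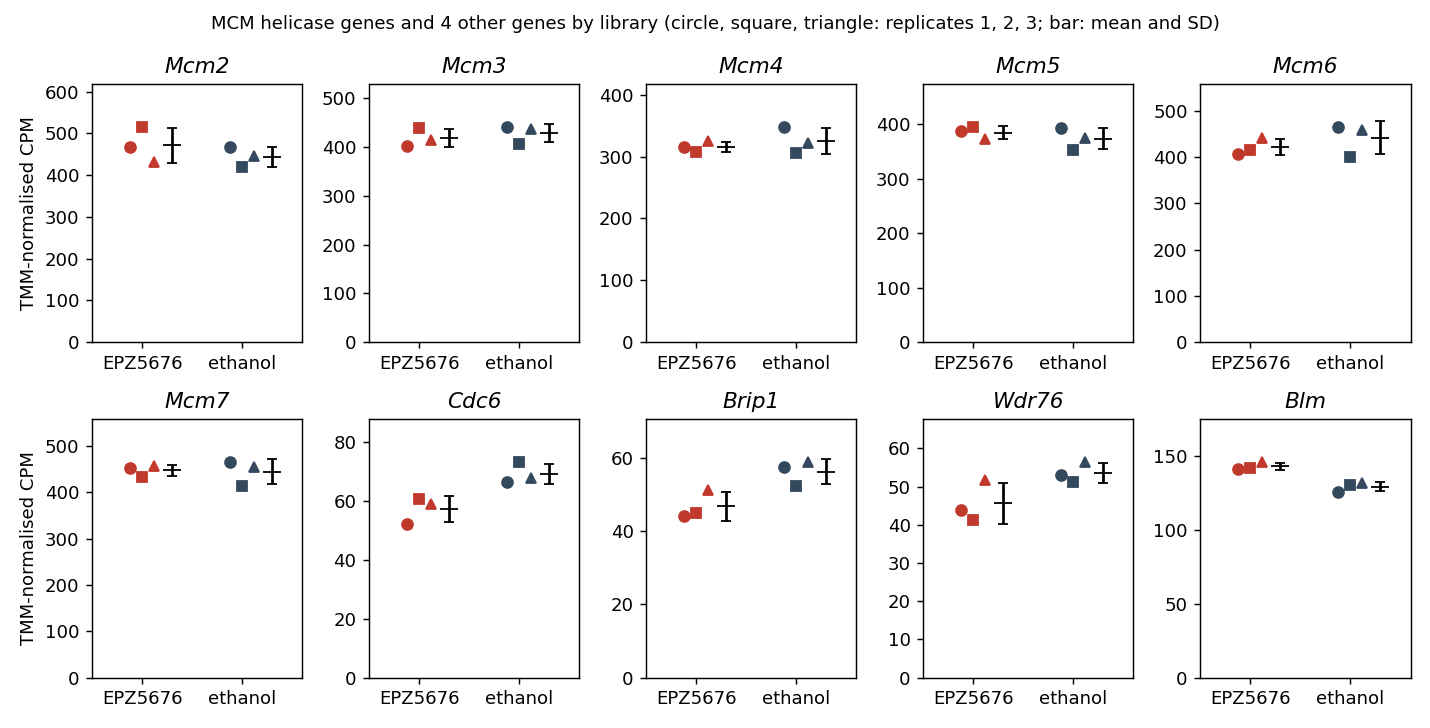
TMM-normalised CPM of Mcm2 to Mcm7, Cdc6, Brip1, Wdr76 and Blm in each library, with EPZ5676 left of ethanol; symbols mark replicates 1, 2 and 3 and bars the mean with SD (n = 3 per group). The groups overlap in all 6 MCM genes and in Wdr76, while Cdc6 and Brip1 lie lower and Blm higher in all 3 EPZ5676 libraries.

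Levels per kilobase allow the genes to be ranked against each other. Exon lengths came from GENCODE vM21 transcripts with a RefSeq accession, which may differ from the annotation used for counting. Among the MCM genes Mcm7 was highest, at 151 ± 4.02 CPM per kilobase with EPZ5676 and 150.0 ± 9.34 with ethanol (SD, n = 3 each). Mcm2 was at 139.9 ± 12.5 and 132 ± 7.06, and Mcm3 at 138 ± 6.32 and 141 ± 6.18. With EPZ5676 Mcm2 and Mcm3 did not differ beyond their spread, while with ethanol Mcm3 was above Mcm2 in each library. Mcm5 followed at 114 ± 3.47 and 110.4 ± 5.92, then Mcm6 at 96.5 ± 4.07 and 101 ± 8.19, and Mcm4 at 88.0 ± 2.35 and 90.7 ± 5.92. The highest MCM mean was 1.71-fold the lowest with EPZ5676 and 1.65-fold with ethanol. Over all 43 genes the top level per kilobase was that of Nasp, a histone chaperone gene, with 264 ± 14.1 with EPZ5676 and 251 ± 5.17 with ethanol. Rpa2 ranked next in both groups, and E2f8, Gins2 and Ccne2 held the 3 lowest places in both.

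Of the other licensing genes, Cdc6 stood lowest by fold change among all 43. CDC6 is the ATPase that, with the origin recognition complex, loads the MCM ring. Cdc6 had 52.3, 60.8 and 58.9 CPM in EPZ5676 replicates 1, 2 and 3, against 66.7, 73.3 and 67.9 CPM in ethanol replicates 1, 2 and 3. The groups did not overlap, and replicate 2 was the highest library of each group. The log2 fold change was -0.27 ± 0.09 (SE), and the pair differences were -0.35, -0.27 and -0.20 for replicates 1, 2 and 3. Cdc6 did not pass the edgeR quasi-likelihood test after Benjamini-Hochberg adjustment, where the adjusted p was 0.601 unblocked and 0.0957 blocked. In the blocked fit it passed when pair 2 or pair 3 was left out, at adjusted p of 0.0457 and 0.0362, where 5.36% and 5.10% of all genes passed. It did not pass when pair 1 was left out, at 0.638, where 0% of all genes passed.

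CDT1 is the partner of CDC6 in loading, and geminin, the product of Gmnn, blocks CDT1 after S phase has begun. Cdt1 had 114, 134 and 87.7 CPM with EPZ5676, against 107, 105 and 103 CPM with ethanol, so the EPZ5676 libraries lay both above and below the controls. Its coefficient of variation with EPZ5676, 20.9%, was the highest of the 43 genes in that group. Gmnn had 75.7, 80.7 and 87.9 CPM with EPZ5676, against 93.1, 85.1 and 91.3 CPM with ethanol, and the groups overlapped. The log2 fold changes were 0.09 ± 0.14 (SE) for Cdt1 and -0.14 ± 0.09 for Gmnn.

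CDC45 and the GINS complex join the MCM ring to make the active helicase. Cdc45 had 147, 144 and 145 CPM with EPZ5676, against 166, 133 and 158 CPM with ethanol, a narrow group inside a wide one. Gins2, a GINS subunit gene, had 17.9, 21.5 and 19.6 CPM with EPZ5676, against 23.4, 19.7 and 20.6 CPM with ethanol, and the groups overlapped. Cdc45 had a log2 fold change of -0.07 ± 0.09 (SE) and Gins2 one of -0.11 ± 0.12. Both overlap a neighbouring gene in RefSeq, Cdc45 with Ufd1 and Gins2 with Gse1.

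The 8 genes of fork synthesis all had overlapping groups, and their log2 fold changes ran from -0.11 to 0.07. Pcna, which encodes the sliding clamp, had 135, 150.1 and 119 CPM with EPZ5676, against 135, 130.3 and 134 CPM with ethanol. Pola1, the catalytic subunit of the priming polymerase, had a log2 fold change of -0.01 ± 0.10 (SE), and Pold3, a subunit of the lagging-strand polymerase, one of 0.02 ± 0.07. Rpa2, a subunit of the single-stranded DNA binding complex, had 303, 258 and 309.5 CPM with EPZ5676, against 334, 254 and 338 CPM with ethanol. In Rpa2 both replicate 2 libraries were the lowest of their group. Dscc1, of the CTF18 clamp loader, had the most negative value of these genes, -0.11 ± 0.15, at only 11.8 ± 1.17 CPM for EPZ5676 and 12.7 ± 1.65 CPM for ethanol (SD, n = 3 each). That value ran from -0.22 without ethanol replicate 2 to -0.042 without ethanol replicate 1. Prim1, Rfc2 and Fen1, for primase, clamp loader and flap nuclease, had log2 fold changes of -0.07, 0.07 and -0.05.

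Nucleotide supply genes had log2 fold changes between -0.07 and -0.03. Rrm1 and Rrm2 encode the large and the S-phase regulated small subunit of ribonucleotide reductase. Rrm1 had 291, 287 and 323 CPM with EPZ5676, against 316, 283 and 328 CPM with ethanol. Rrm2 had 45.4, 61.5 and 44.0 CPM with EPZ5676, against 46.9, 63.5 and 47.2 CPM with ethanol. In Rrm2 both replicate 2 libraries lay far above the others, and within each pair the EPZ5676 library was slightly lower. Tyms, for thymidylate synthase, averaged 25.7 ± 1.93 CPM for EPZ5676 and 26.2 ± 0.865 CPM for ethanol (SD, n = 3 each). Ung, for the glycosylase that removes uracil from DNA, had 129, 131 and 125 CPM with EPZ5676, against 139, 131 and 136 CPM with ethanol. Its groups did not overlap, by a margin of less than 1 CPM between the replicate 2 libraries, and its log2 fold change was -0.07 ± 0.07 (SE). Ung overlaps the gene Alkbh2 in RefSeq, so reads of the pair may be shared.

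Among the regulators of S-phase entry, both cyclin E genes had negative log2 fold changes that did not pass the test. Cyclin E activates CDK2 at the G1/S boundary. Ccne1 had 21.1, 25.9 and 21.0 CPM with EPZ5676, against 24.6, 27.8 and 25.3 CPM with ethanol. Ccne2 had 13.7, 17.5 and 14.7 CPM with EPZ5676, against 15.4, 21.8 and 15.3 CPM with ethanol. Replicate 2 was the highest library of each group for both genes, the groups overlapped, and each EPZ5676 library was below the ethanol library of its number. The log2 fold changes were -0.19 ± 0.12 (SE) for Ccne1 and -0.19 ± 0.17 for Ccne2, with edgeR adjusted p of 0.772 and 0.838. Leaving out 1 library at a time, Ccne2 ran from -0.30 without EPZ5676 replicate 2 to -0.0068 without ethanol replicate 2. Ccne1 ran from -0.30 without EPZ5676 replicate 2 to -0.13 without ethanol replicate 2. E2f1, an activator of the programme, had 82.7, 80.9 and 71.3 CPM with EPZ5676, against 82.9, 70.8 and 78.6 CPM with ethanol. E2f8, a repressor of E2F targets, had a log2 fold change of 0.06 ± 0.14.

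The 8 genes grouped under chromatin and histone supply had 7 positive values, none called, where 7172 of all 14855 genes were positive. Those of Slbp and Hells lay close to 0, and that of Hells turned negative with library totals alone and without both replicate 2 libraries. Hells, a chromatin remodeller gene, had 800.3, 853 and 834 CPM with EPZ5676, against 812, 831 and 824 CPM with ethanol. Its partner Cdca7 had 303, 299 and 319.6 CPM with EPZ5676, against 306, 276 and 319.6 CPM with ethanol. In both genes the groups overlapped, and Hells had the narrowest interval of the 43, from -0.12 to 0.15. Nasp averaged 829 ± 44.3 CPM with EPZ5676 and 789.6 ± 16.3 CPM with ethanol, and Chaf1b, of the CAF-1 assembly factor, 197 ± 15.5 and 195 ± 8.99 CPM (SD, n = 3 each). Slbp and Casp8ap2, which act in histone mRNA processing, had log2 fold changes of 0.00 and 0.07. Ubr7, a UBR-box family gene, had 115, 111 and 126 CPM with EPZ5676, against 114, 97.4 and 112 CPM with ethanol, higher in all 3 pairs though the groups overlapped. The negative value was that of Wdr76, a WD-repeat protein gene, with 43.9, 41.2 and 51.7 CPM with EPZ5676, against 53.0, 51.1 and 56.4 CPM with ethanol. Its groups overlapped by 1 library, and its log2 fold change was -0.23 ± 0.11 (SE), and its edgeR adjusted p was 0.674 unblocked and 0.147 blocked.

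The genes of fork protection and repair were split, with 4 positive and 4 negative values, and held both the second-lowest and the highest value of the set. Brip1 encodes a BRCA1-associated helicase that repairs crosslinks. Brip1 had 44.1, 45.0 and 51.3 CPM in EPZ5676 replicates 1, 2 and 3, against 57.5, 52.3 and 58.8 CPM in ethanol replicates 1, 2 and 3. The groups did not overlap, and the log2 fold change was -0.27 ± 0.10 (SE). Its edgeR adjusted p was 0.630 unblocked and 0.122 blocked. Of the blocked fits without 1 pair only that without pair 2 called it, at 0.0486, where 5.36% of all genes were called.

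Blm encodes a RecQ helicase that dissolves recombination intermediates at forks. Blm had 141, 142 and 146 CPM with EPZ5676, against 126, 131 and 131 CPM with ethanol, tight groups that did not overlap. Its log2 fold change was 0.14 ± 0.07 (SE), with pair differences of 0.17, 0.12 and 0.15 and an edgeR adjusted p of 0.673 unblocked and 0.205 blocked. Clspn, for the claspin adaptor of the replication checkpoint, had 138, 148 and 153 CPM with EPZ5676, against 166, 149 and 164 CPM with ethanol. Rad51ap1 had 32.7, 36.0 and 34.2 CPM with EPZ5676, against 40.6, 35.5 and 36.8 CPM with ethanol. The groups of Clspn and Rad51ap1 overlapped, with log2 fold changes of -0.12 ± 0.08 and -0.13 ± 0.10. Tipin, of the fork protection complex, had 164, 179 and 180.4 CPM with EPZ5676, against 173, 159.6 and 175 CPM with ethanol. Usp1, a deubiquitinase gene, Exo1, an exonuclease gene, and Dtl, for the adaptor that marks CDT1 for destruction, had log2 fold changes of 0.02, 0.03 and -0.08.

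Counted over the set, 4 of the 43 genes had groups that did not overlap, namely Cdc6, Brip1 and Ung lower and Blm higher with EPZ5676. That is 9.30% of the set, against 14.9% of all genes tested (7.64% lower and 7.22% higher). The sign was the same in all 3 replicate pairs for 12 genes, 10 lower and 2 higher, which is 27.9% of the set against 41.8% of all genes. The 10 lower genes were Cdc6, Gmnn, Dscc1, Rrm2, Ung, Ccne1, Ccne2, Wdr76, Clspn and Brip1, and the 2 higher genes were Ubr7 and Blm. The median difference of the 43 genes was -0.08 in pair 1, 0.05 in pair 2 and -0.05 in pair 3, so the direction of the set as a whole was not shared by the pairs. Without both replicate 2 libraries, 35 of the 43 values were negative, with a median of -0.07 against -0.01 over all genes tested. In that fit edgeR called 0 of the 43, against 0.0675% of all genes. At an unadjusted p under 0.05, 2 were higher and 6 lower, where 14.0% of all genes were below it in either direction. With the block, the same libraries gave 2 higher and 13 lower at that p, where 20.4% of all genes were below it. In both fits the share of the 43 genes under that p was above that of all genes. The blocked fit called Cdc6 and Brip1 lower, where it called 5.36% of all genes.

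Replicate 2 differed from the other libraries of its group in several of these genes by more than the groups differed from each other. It was compared with the mean of replicates 1 and 3 of its own group, as a log2 difference. It was higher in both groups for 12 genes and lower in both for 15. Rrm2 differed by 0.46 with EPZ5676 and 0.43 with ethanol, and Ccne2 by 0.30 and 0.49. Rpa2 differed by -0.25 and -0.41, and Exo1 by -0.23 and -0.42. For 13 genes, Mcm2, Mcm3, Mcm5 and Pcna among them, replicate 2 was higher with EPZ5676 and lower with ethanol, and 3 genes had the opposite pattern. The sums of the 16 fibroblast and 6 peritubular markers were also highest in the replicate 2 library of each group, and their part in these values was not tested.

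**Figure D5:**
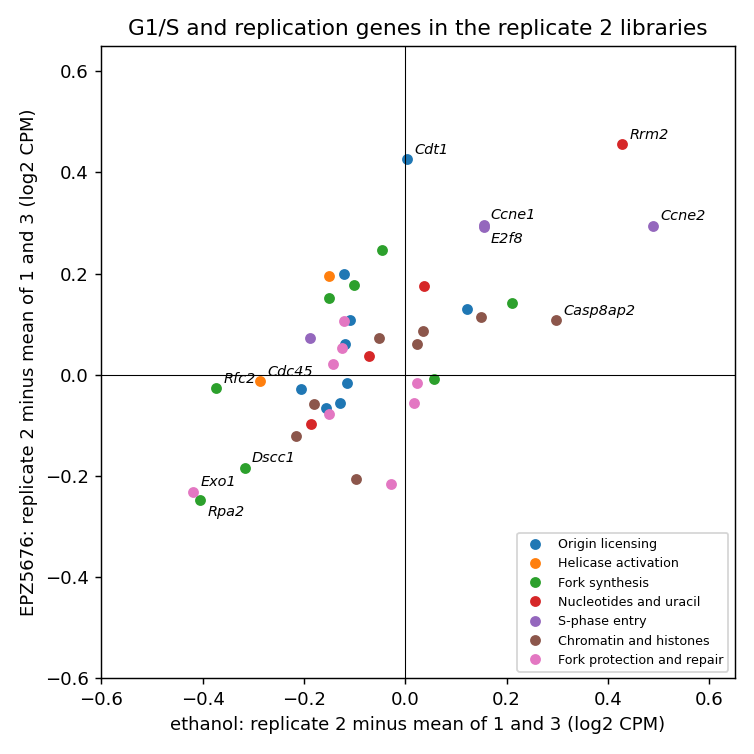
Difference between replicate 2 and the mean of replicates 1 and 3 (log2 CPM) for each of the 43 genes, with EPZ5676 on the vertical and ethanol on the horizontal axis, coloured by role. Rrm2, Ccne2, Ccne1 and E2f8 lie at the upper right, and Rpa2, Exo1 and Dscc1 at the lower left.

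Fold changes were also set out by whether the promoter window held an E2F element. The median log2 fold change was 0.01 over 14 genes with a match, from -0.27 for Cdc6 to 0.12 for Ubr7. It was -0.05 over 20 genes without one, from -0.27 for Brip1 to 0.14 for Blm. The ranges of the 2 sets overlapped almost wholly, and no test was made.

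A list of 94 other replication and G1/S genes, of which 93 were tested, held a few larger values. The median log2 fold change was -0.03, with 40 positive and 53 negative. Without the block edgeR called 0 of them, with 4 higher and 4 lower at an unadjusted p under 0.05, which is 8.60% against 7.41% of all genes. DESeq2 and limma-voom without the block also called 0, against 0.337% and 0% of all genes. With the block, where 0.653% of all genes were called, 1 of the 93 was called higher and 1 lower, Cdk4 and Cdk6, which encode the kinases that cyclin D activates in G1.

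Cdk4 had 256, 211 and 254 CPM in EPZ5676 replicates 1, 2 and 3, against 199.6, 146 and 206 CPM in ethanol replicates 1, 2 and 3. Cdk6 had 55.3, 48.0 and 58.6 CPM with EPZ5676, against 70.7, 69.5 and 74.7 CPM with ethanol. The groups did not overlap in either gene, and the paralogous kinases moved in opposite directions. In the blocked edgeR fit Cdk4 rose by a log2 fold change of 0.40 ± 0.06 (SE) and Cdk6 fell, at -0.41 ± 0.07, each with an adjusted p of 0.0485. Unblocked, the edgeR adjusted p was 0.625 for Cdk4 and 0.532 for Cdk6, and limma-voom with the block gave 0.0525 for each. Both calls were lost in the blocked fit without pair 1, at 0.404 for Cdk4 and 0.446 for Cdk6, where 0% of all genes were called. Both genes were called by DESeq2 with the block and by blocked edgeR with library totals, which called 1.97% and 1.30% of all genes. Blocked edgeR also called both without pair 2 or pair 3, against 5.36% and 5.10% of all genes. Cdk4 overlaps Tspan31 in RefSeq, so reads of the pair may be shared.

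The next genes of that list by p did not pass edgeR in either fit of all 6 libraries with TMM scaling, but some passed in other fits. Samhd1, which degrades deoxynucleotides, averaged 74.8 ± 3.35 CPM for EPZ5676 and 101 ± 13.6 CPM for ethanol (SD, n = 3 each), with a blocked adjusted p of 0.0504. Cad, the first enzyme of pyrimidine synthesis, averaged 523 ± 30.4 CPM with EPZ5676 and 427 ± 36.9 CPM with ethanol, at 0.0746. Gins3, a partner of Gins2, averaged 29.8 ± 2.11 CPM with EPZ5676 and 37.6 ± 1.51 CPM with ethanol, at 0.107. In these 3 genes the groups did not overlap, and Cad overlaps Atraid in RefSeq. The blocked edgeR fit with library totals as the scaling called Samhd1, at an adjusted p of 0.0421, where 1.30% of all genes were called. Blocked edgeR fits called Samhd1 and Cad without pair 2 or pair 3, and Gins3 without pair 2. Those fits called 5.36% of all genes without pair 2 and 5.10% without pair 3. Of the same list they also called Ccnd3 without pair 2, and Cdkn1b, Ccnd2, Pold1 and Chtf18 without pair 3. Without pair 1 none of the 3 was called, at 0.477 for Samhd1, 0.545 for Cad and 0.636 for Gins3. That fit called 0% of all genes. DESeq2 with the block called Samhd1 and Cad, at 0.00212 and 0.00832, where it called 1.97% of all genes. Chtf8, of the CTF18 clamp loader, which overlaps Derpc, had overlapping groups and a log2 fold change of -0.19 ± 0.15 (SE), which ran from -0.32 without ethanol replicate 2 to -0.050 without EPZ5676 replicate 2. Of the 18 genes of origin recognition and firing, 15 had negative values (83.3%), against 51.7% of all genes tested. Their median was -0.08, with 0 called by edgeR in either fit. In the blocked fit 4 (22.2%) were lower and 0 higher at an unadjusted p under 0.05, against 9.51% and 9.01% of all genes. Across the 30 G2/M genes, which act after replication, the median was -0.09, with 25 negative (83.3%). The edgeR test called 0 of them in either fit, where it called 0% and 0.653% of all genes. At an unadjusted p under 0.05, 2 (6.67%) were lower unblocked and 6 (20%) blocked, against 3.57% and 9.51% of all genes. At that p 0 of the G2/M genes were higher, where 3.84% of all genes were unblocked and 9.01% blocked. Their difference from the 43 genes was not tested.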

How the data were processed

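RNA was measured in 6 libraries, 3 with EPZ5676 and 3 with ethanol. Per the labels, TRIzol was used for extraction and a TruSeq Stranded kit for mRNA libraries. The authors deposited whole-number counts per gene symbol. The submitters' processing notes name mm9 as the build, and STAR, Bowtie, featureCounts and edgeR as tools. Versions, strand settings and how multiply aligned reads were treated: not given in the sources used here. A deposited table of repeat families was not used.

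The deposited counts went unchanged into edgeR 4.0.16 (R 4.3.3): filterByExpr, TMM scaling, the quasi-likelihood test (2-sided) and Benjamini-Hochberg adjustment over 14855 genes, with a threshold of 0.05. SE is the log2 fold change divided by the square root of the F statistic, and 95% intervals use the test's degrees of freedom. Pair differences are of log2(CPM + 0.5). Alternatives used DESeq2 1.42.0 and limma 3.58.1 (voom), other scalings and filters, and fits without single libraries or pairs. The tests were checked on simulated counts. No library was a copy of another: chi-square per degree of freedom over genes with at least 20 counts was 3.63 or more for all pairs.

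Same-numbered libraries deviated from their group means together, with correlations across genes of 0.468, 0.639 and 0.373 for replicates 1, 2 and 3. Differently numbered libraries ran from -0.542 to 0.318, with EPZ5676 1 and ethanol 3 at 0.318 and EPZ5676 3 and ethanol 1 at 0.149, so replicates 1 and 3 are not clearly told apart. All same-numbered pairs exceed 0.1, the bound for treating numbers as pairs, so a fit blocked on that number stands beside results it changes. No label says what the numbers stand for, and these correlations were computed in the same run as the blocked fit. It has 2 residual degrees of freedom, against 4 without the block.

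The genes and lists were chosen with earlier results of these data known. Described in full were Mcm2 to Mcm7, the 8 genes with the smallest p in each fit, called genes, the highest level and largest fold change in each of 7 roles, and, from the other replication list, called genes and the 6 smallest blocked p. Other genes are given more briefly and were picked as examples after their values were seen. Promoter sequences are RefSeq's (GRCm38.p6) and exon lengths GENCODE vM21's, neither of which is mm9, so no mm9 coordinates are given. By RefSeq, 8 of the 43 genes overlap another protein-coding gene, so reads may be shared. They are Mcm7, Cdc45, Gins2, Ung (with Alkbh2), Fen1 (with Tmem258), E2f1 (with Necab3), Ccne2 (with Ints8) and Dtl (with Ints7).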

Additional observations from a re-analysis of the deposited data

How the results depend on the processing

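The count of 0 called among the 43 genes held in every fit of all 6 libraries, with edgeR, DESeq2 or limma-voom, with or without the replicate block. Leaving out a library, or a pair with the block, the genes called lower ran from 0 to 2 (Cdc6 without pair 2 or 3, Brip1 without pair 2) and none was called higher. The pair fits have 1 residual degree of freedom less than the full blocked fit. Their median log2 fold change was 0.01 without pair 1, -0.07 without pair 2 and -0.01 without pair 3; the cause was not tested.

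Over all genes, calls higher and lower were 48 and 49 with the replicate block, 22 and 28 with DESeq2, and 6 and 4 without both replicate 2 libraries. Alternatives added after seeing the data gave 135 and 158 (DESeq2 with the block), 13 and 16 (limma-voom with the block) and 76 and 117 (library totals with the block). Leaving out libraries or pairs gave 0 to 486 higher and 0 to 432 lower. Among the other replication and G1/S genes, calls higher and lower were 1 and 1 with the block, 2 and 2 with DESeq2 and the block (Samhd1 and Cad added), 1 and 2 with library totals and the block (Samhd1 added), 0 with limma-voom and the block, and 0 to 5 and 0 to 4 when libraries or pairs were left out.

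Signs turned for several genes, among them Gins2 and Mcm2, whose values with all libraries were -0.11 and 0.09. With library totals alone Mcm7 was at -0.0046 and Hells at -0.00026, and with the block at -0.0026 and -0.0011. Without both replicate 2 libraries Mcm2 was at -0.021, Mcm5 at -0.017, Mcm7 at -0.020, E2f1 at -0.068, Hells at -0.0017 and Tipin at -0.016. Leaving out libraries or pairs gave ranges of -0.022 to 0.15 for Mcm2, -0.11 to 0.016 for Mcm3, -0.090 to 0.0092 for Mcm4, -0.017 to 0.081 for Mcm5, -0.14 to 0.00094 for Mcm6, -0.046 to 0.042 for Mcm7, -0.16 to 0.00066 for Cdc45, -0.23 to 0.033 for Gins2, -0.071 to 0.10 for E2f1, -0.0092 to 0.036 for Hells, -0.10 to 0.0047 for Rrm1 and -0.017 to 0.10 for Tipin. Cdc6 stayed between -0.32 and -0.21 and Brip1 between -0.34 and -0.21.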
